A study of Mus musculus with 2 samples.

Results

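The genes described here are the 4 Id genes, Id1, Id2, Id3 and Id4, and the 2 inhibitory SMAD genes, Smad6 and Smad7, chosen by symbol as genes that respond to bone morphogenetic protein (BMP) signalling. They are 6 of the 18193 genes that the array names, and they hold 11 of the 34945 probe sets annotated to a single gene. No probe set named one of them together with another gene. RNA came from sorted cells of the Tie2Cre lineage in mouse hearts at embryonic day 12.5. The mutant sample carried Tie2Cre with Tbx20 loxP/- (1 floxed and 1 null allele). The control sample carried Tie2Cre with Tbx20 +/loxP (1 wild-type and 1 floxed allele). Both genotypes thus hold the Cre transgene and a floxed allele on which Cre can act in the sorted lineage. Where the floxed allele is deleted, the control keeps 1 wild-type allele and the mutant keeps none, so the control is not wild type. Tie2Cre acts in endothelium and endocardium, in the cushion mesenchyme that arises from endocardium, and in blood cells. Cells bearing CD41, CD45 or Ter119 were left out of the sort, and dead cells were marked with DAPI. The null allele is carried by every cell of the mutant embryos, not by the sorted lineage alone. How many embryos went into each sample is not given in the sources used here. Each genotype had 1 array, so there is no replicate check and no test, and every difference below is between these 2 arrays.

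BMP ligands bind type I and type II receptors, which phosphorylate SMAD1, SMAD5 and SMAD9, and these enter the nucleus with SMAD4 and switch on target genes. The Id genes are among the best known direct targets. Their proteins have a helix-loop-helix domain without a basic region, so they bind the E proteins and other basic helix-loop-helix factors and keep them off DNA. SMAD6 and SMAD7 are feedback inhibitors, induced by the pathway and acting on its receptors and SMADs: SMAD6 mainly on BMP signals, SMAD7 on both BMP and TGF-beta signals. In the heart, BMP signals from the myocardium to the endocardium take part in forming the cushions from which valves arise, and Smad6 is known for its expression in the endocardium and outflow tract of the mouse heart. Id genes also respond to other inputs, including TGF-beta and serum, so their RNA is not a measure of BMP signalling alone.

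The RefSeq promoter table (GRCm38.p6) held 4 of the 6 genes, Id2, Id3, Id4 and Smad6, and the windows of these 4 are shown. Letters that SMAD proteins are known to recognise are marked in them, and sequence outside the windows was not searched. The genes not matched were Id1 and Smad7. Each window runs from 250 bases before to 50 bases after the start site, 5′ to 3′ on the gene's strand. Id2 lies at chr12:25096043-25096342 on the minus strand, Id3 at chr4:136143572-136143871 on the plus strand, Id4 at chr13:48260866-48261165 on the plus strand and Smad6 at chr9:64022010-64022309 on the minus strand. Capitals mark matches, on either strand, to GTCTAGAC, GGCGCC or GGAGCC.
Id2: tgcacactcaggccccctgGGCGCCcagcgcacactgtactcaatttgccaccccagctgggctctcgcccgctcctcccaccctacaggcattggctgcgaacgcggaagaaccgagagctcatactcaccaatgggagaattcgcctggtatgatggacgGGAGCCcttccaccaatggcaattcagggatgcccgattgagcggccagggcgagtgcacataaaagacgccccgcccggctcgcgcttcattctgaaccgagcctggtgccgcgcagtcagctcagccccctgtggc
Id3: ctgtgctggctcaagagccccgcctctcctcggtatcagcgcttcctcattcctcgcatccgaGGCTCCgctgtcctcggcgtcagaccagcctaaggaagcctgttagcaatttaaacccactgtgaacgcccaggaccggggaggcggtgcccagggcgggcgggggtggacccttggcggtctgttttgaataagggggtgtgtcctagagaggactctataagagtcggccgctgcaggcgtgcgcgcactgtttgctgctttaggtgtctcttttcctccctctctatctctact
Id4: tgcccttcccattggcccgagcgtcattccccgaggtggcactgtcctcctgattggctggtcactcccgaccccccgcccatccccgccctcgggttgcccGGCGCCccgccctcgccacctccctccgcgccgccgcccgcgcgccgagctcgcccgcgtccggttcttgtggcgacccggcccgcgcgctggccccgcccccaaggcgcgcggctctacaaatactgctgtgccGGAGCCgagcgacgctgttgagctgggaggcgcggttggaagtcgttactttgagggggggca
Smad6: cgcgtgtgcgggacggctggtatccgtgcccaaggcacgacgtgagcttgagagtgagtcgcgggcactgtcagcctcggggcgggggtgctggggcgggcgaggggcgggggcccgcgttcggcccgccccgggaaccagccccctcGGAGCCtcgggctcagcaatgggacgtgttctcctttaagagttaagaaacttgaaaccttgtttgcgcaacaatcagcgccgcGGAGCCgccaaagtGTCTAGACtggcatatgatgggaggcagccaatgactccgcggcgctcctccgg

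The palindrome GTCTAGAC, which joins a pair of SMAD boxes, was found in the Smad6 window and in none of the windows of Id2, Id3 and Id4. It begins at position -4, counted from 0 at the first base of the start site, so it spans that site. Of 32851 promoter windows of this length, 70 (0.213%) hold it. GGAGCC was found in all 4 windows, with 2 matches in Smad6, and in 30.8% of all windows. GGCGCC was found in Id2 and Id4 and in 11.9% of all windows. The SMAD box CAGAC was found in Id3 alone of the 4 (2 matches; 49.6% of all windows). It shares its reverse-strand letters GTCT with the palindrome, but the Smad6 palindrome is not a CAGAC match. The E-box CANNTG, read by basic helix-loop-helix factors, was found in Id2 and Smad6 (72.3% of all windows). The T-box core AGGTGT was found in Id3 alone (13.7% of all windows). The 4 windows are 60.0% to 73.3% G and C, against a median of 52.7% over all windows, and motif counts were not corrected for this. The motifs were chosen with these sequences in view, and a match describes letters, not a bound site.

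Signals are MAS5 intensities, a linear value per probe set that the Affymetrix method makes from perfect-match and mismatch probes. A probe set counted as measured where its signal was above the median of its array, 82.4 in the mutant and 91.3 in the control, and this median served as the floor. Of the 11 probe sets, 10 exceeded the floor on both arrays, with at least 1 for each of the 6 genes. A gene is represented by the probe set whose log2 signal was highest on average, called the brightest here, and the ratio is log2 of mutant over control. Affinity differs between probe sets, so levels are compared between arrays and no gene is ranked above another by its signal.

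By the brightest probe set, Id1, Id3, Id4, Smad6 and Smad7 were lower in the mutant and Id2 was higher, so 5 of 6 genes were lower, against 51.0% of the 10665 genes measured on both arrays. Id4 is counted among the lower genes at a ratio of -0.01, equal at this precision to the median of all measured genes. No member was 2-fold lower, against 1.46% of all measured genes, and none was 2-fold higher, against 0.647%. At 1.5-fold, Smad7 alone was lower, 1 of 6 genes, against 6.61% of all measured genes, and none was higher, against 4.37%. The median log2 ratio was -0.28 over the 6 genes (SD 0.37) and -0.01 over all measured genes (SD 0.38). Of the 10 measured probe sets, 9 were lower in the mutant, against 50.1% of 19273 measured probe sets, and 1 was at least 1.5-fold lower, against 7.29%. Probe sets of 1 gene read the same RNA, so these counts are not independent, and in sorted bulk RNA a smaller share of expressing cells and less RNA per cell cannot be told apart.

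**Figure D1:**
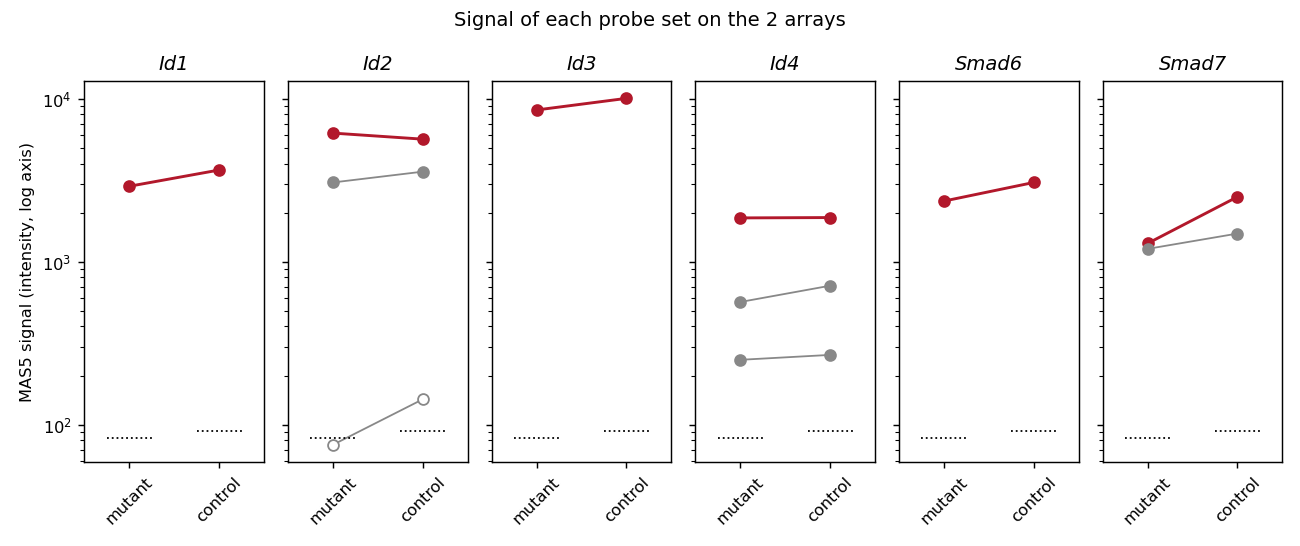
MAS5 signal (log axis) of every probe set on the mutant array (left point) and the control array (right point) of each panel, with red for the brightest probe set of the gene, grey for the others, open circles for the probe set not measured on both arrays and dotted lines for the floors of 82.4 and 91.3. Only the red line of Id2 is higher on the mutant side, and the red line of Smad7 is the steepest of the 6.

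Smad7, the inhibitor of both branches, had the widest difference among the 6 genes. Its brightest probe set, 1443771_x_at, read 1293 in the mutant and 2499 in the control, so the mutant had 51.7% of the control signal (1.93-fold lower, log2 ratio -0.95). This ratio lay at percentile 1.75 of all measured genes. The suffix _x_at marks probe sets in which some probes may also match other transcripts. The second probe set, 1423389_at, which has no such suffix, read 1198 in the mutant and 1487 in the control, a log2 ratio of -0.31 at percentile 19.7 of all measured probe sets. Both probe sets were lower in the mutant, but they differ from each other by 0.64 on the log2 scale, so the size of the Smad7 difference depends on the probe set.

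Smad6, the inhibitor that acts mainly on BMP signals and whose start site carries the palindrome printed above, has a single probe set. It read 2353 in the mutant and 3062 in the control, so the mutant had 76.9% of the control signal (1.30-fold lower, log2 ratio -0.38). It lay at percentile 14.6 of all measured genes, and there is no second probe set to set it against.

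Id1, the Id gene most often used as a readout of BMP signalling in endothelial cells, also has a single probe set. It read 2900 in the mutant and 3650 in the control, 79.5% of control (log2 ratio -0.33, percentile 17.5 of all measured genes). Id3, which acts together with Id1 in vessel growth and heart development in mice, read 8526 in the mutant and 10049 in the control, 84.8% of control (log2 ratio -0.24, percentile 24.7). Id1, Id3 and Smad6, each read by 1 probe set, were thus all modestly lower in the mutant, with ratios between -0.38 and -0.24.

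Id2, known for its part in lymphoid and neural development as well as in the heart, gave probe sets that disagree in direction. The brightest, 1422537_a_at, read 6151 in the mutant and 5646 in the control (log2 ratio 0.12), the only measured probe set of the 10 that was higher in the mutant. The next, 1435176_a_at, read 3061 in the mutant and 3567 in the control (log2 ratio -0.22). Their ratios averaged -0.05 (SD 0.24 over 2 probe sets), so no direction can be given for Id2. The third, 1453596_at, was dim: it read 75.1 in the mutant, under the floor, and 143 in the control, which makes it at least 1.73-fold lower against the mutant floor.

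Id4, best known from neural development, had almost the same signal on both arrays in its brightest probe set, 1423260_at, at 1855 in the mutant and 1864 in the control (log2 ratio -0.01). The second, 1423259_at, read 565 in the mutant and 712 in the control (log2 ratio -0.33). The third, 1450928_at, read 250 in the mutant and 268 in the control (log2 ratio -0.10). All 3 were lower in the mutant, and their ratios averaged -0.15 (SD 0.17 over 3 probe sets). They are annotated to the same sequence accession.

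With 1 array per genotype, the measured error is the disagreement between probe sets of the same gene, which covers probe error and not embryos or preparations. Over genes with several measured probe sets, its SD was 0.24 on the log2 scale at signals over 1000 and 0.36 from 200 to 1000. Of the 10 probe sets, 6 had ratios within 1 such SD of 0. Those past it were Id1, Smad6 and both Smad7 probe sets, 4 of 10, against 34.6% of all measured probe sets. Past 2 SD there was 1, the brightest of Smad7, against 7.93% of all measured probe sets. The brightest probe sets of all 6 genes had mean signals over 1000, and of the 4347 genes in that class 47.7% were lower in the mutant at all and 2.94% at least 1.5-fold lower. In that class Smad7 lay at percentile 0.782, Smad6 at 8.42, Id1 at 11.0, Id3 at 17.7, Id4 at 46.5 and Id2 at 67.1.

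**Figure D2:**
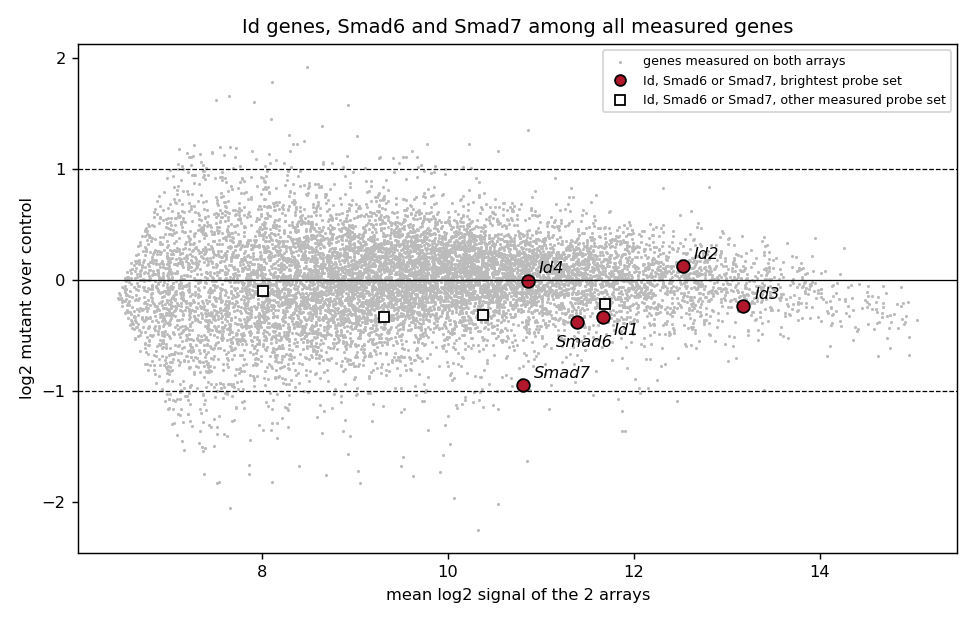
Log2 mutant over control (y axis) against the mean log2 signal of both arrays (x axis) for 10665 measured genes (grey) and for the probe sets of the Id genes, Smad6 and Smad7 (red circles, brightest; white squares, others), with dashed lines at 2-fold. Smad7 at -0.95 lies at the lower edge of the grey cloud just inside the 2-fold line, and the others lie within the cloud.

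Among the 4 BMP lists examined, the ligands had the lowest median ratio. Of 7 BMP ligand genes, 4 were measured, 3 lower and 1 higher in the mutant, against 51.0% lower of all measured genes. Their median log2 ratio was -0.77, against -0.01 over all measured genes. Bmp6 read 403 in the mutant and 1285 in the control (-1.67), and Bmp2, the ligand best known for cushion formation, 142 in the mutant and 386 in the control (-1.44), each from 1 probe set. Bmp4 was at -0.10 and Bmp5 at 0.10. The other 3, Bmp7, Bmp10 and Gdf2, were under the floor on both arrays. The arrays read RNA of the sorted cells, so ligand RNA of the myocardium as a whole was not measured. The part of these ligands in the Id and SMAD ratios was not tested.

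Receptors and signalling SMADs had ratios closer to 0, with a median of -0.06 over the 11 of 12 measured. Of these 11, 7 were lower and 4 higher, none at 2-fold, against 51.0% lower of all measured genes. Smad9, which encodes a receptor-activated SMAD, read 199 in the mutant and 116 in the control (0.78), from a single dim probe set. The type II receptor gene Bmpr2 read 1840 in the mutant and 2419 in the control (-0.39), with its other measured probe set at -0.10. Smad4, the common partner, read 2518 in the mutant and 3152 in the control (-0.32), while its highest measured probe set was at 0.23. Acvrl1, the endothelial type I receptor ALK1, was at -0.30. Smad1 and Smad5, the main carriers of the BMP signal and named for that role rather than for their size, were at -0.10 and 0.10.

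Extracellular antagonists and modulators had 9 of 17 genes measured, with a median of -0.27. Of these 9, 7 were lower and 2 higher, against 51.0% lower of all measured genes. Bmper, a secreted BMP-binding protein of endothelium, read 308 in the mutant and 737 in the control (-1.26). Sost, which encodes sclerostin, went the other way at 1173 in the mutant and 523 in the control (1.16). Whether sclerostin acts on BMP signals in these cells was not tested. Fst, which encodes follistatin, was at 0.55 with its other probe set at -0.48, and Fstl3, a follistatin-like gene, at -0.43. Among the 9 measured of 13 other genes listed as BMP-responsive, 5 were lower and 4 higher, with a median of -0.07. The homeobox gene Msx1 read 890 in the mutant and 1885 in the control (-1.08), Vezf1 was at -0.60, the Notch target Hey2 at -0.42 and the GATA factor Gata2 at 0.49. Of these 9 genes, only Msx1 was at least 2-fold different by its brightest probe set, and the other Vezf1 probe set was at -1.10.

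The basic helix-loop-helix factors that Id proteins bind, or whose E-protein partners they bind, had 12 of 16 genes measured. Of these 12, 10 were lower and 2 higher, against 51.0% lower of all measured genes, and the median was -0.27. At 1.5-fold, 1 of the 12 was lower, against 6.61% of all measured genes. Tcf12, an E protein, read 2868 in the mutant and 4224 in the control (-0.56), and its measured probe sets lay between -0.67 and -0.12. The other E-protein genes, Tcf3 at -0.11 and Tcf4 at -0.26, are named because they complete the E-protein family. The measured probe sets of Tcf3 reached up to 0.94. Scx, a factor of tendon and valve, was at -1.35, Twist1, a factor of cushion mesenchyme, at -0.52 and Tcf21, a factor of epicardium, at 0.47.

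**Figure D3:**
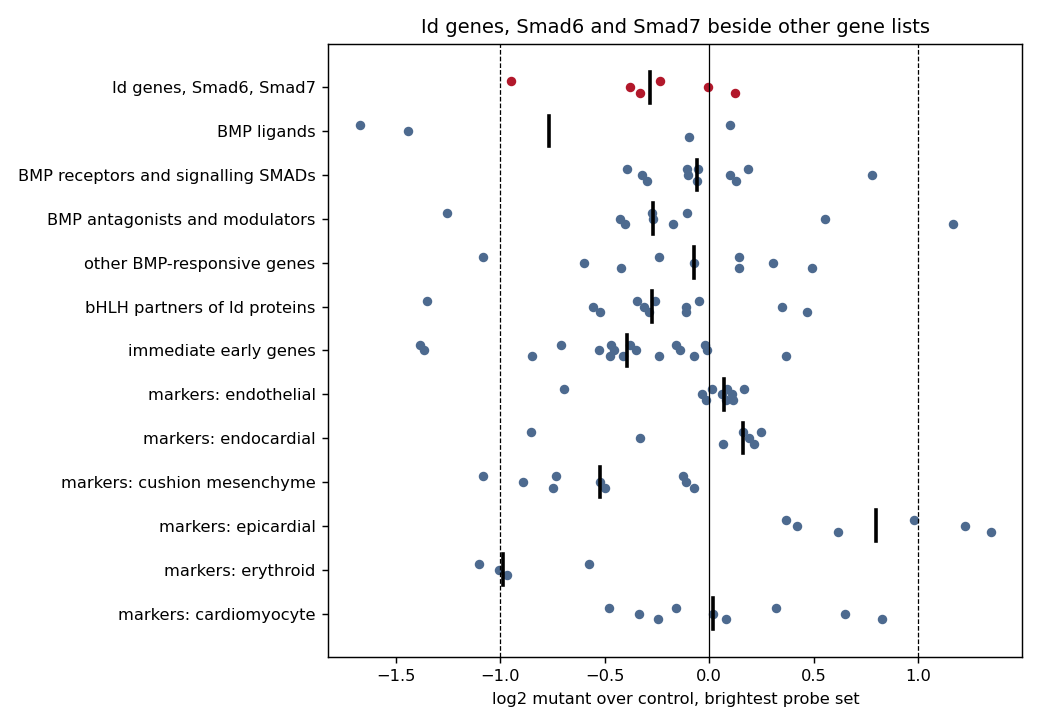
Log2 mutant over control of the brightest probe set of each measured gene (points) and the median of each list (black bars), with the Id genes, Smad6 and Smad7 in red at the top and dashed lines at 2-fold. The median of -0.28 for the red points is close to -0.27 for the antagonists and for the helix-loop-helix partners, while the epicardial markers lie to the right of 0 and the cushion mesenchyme markers to its left.

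The sorted lineage was read strongly on both arrays. All 10 endothelial markers were measured, 3 lower and 7 higher in the mutant. Their summed signal was 59574 in the mutant and 57381 in the control, with a median log2 ratio of 0.07. All 7 endocardial markers were measured, 2 lower and 5 higher, with 21448 in the mutant and 20143 in the control and a median of 0.16. In each of these lists 1 gene was at least 1.5-fold lower and none was 1.5-fold higher. Markers of cushion mesenchyme were lower in 9 of 9, with sums of 34440 in the mutant and 48363 in the control and a median of -0.52. Of these 9, 4 were at least 1.5-fold lower, against 6.61% of all measured genes. Sox9 (-0.07), Col1a1 (-0.11) and Pdgfra (-0.13) were only slightly lower. Immediate early genes, which share serum and stress inputs with Id genes, were lower in 17 of 18. Their sums were 50774 in the mutant and 69905 in the control, with a median of -0.39. Only 4 of the 18 were at least 1.5-fold lower, and the genes counted as lower include Btg2 at -0.01 and Fosb at -0.02. Erythroid markers were lower in 4 of 4 measured (7379 in the mutant, 11396 in the control), of which Hbb-y gave 6606 in the mutant and 9843 in the control. Epicardial markers were higher in 6 of 6 measured (4911 in the mutant, 2341 in the control), of which Upk3b gave 2961 in the mutant and 1163 in the control. Over all measured genes, 51.0% were lower in the mutant. Cardiomyocyte markers were lower in 4 and higher in 5 of 9 measured, with 17100 in the mutant and 13898 in the control. Smooth muscle markers had a median of 0.01 over 5 of 6 measured, with sums of 7203 in the mutant and 7359 in the control. Neural crest and neural markers had a median of -0.20 over 3 of 6, with sums of 11867 in the mutant and 8017 in the control. Of these sums Ednrb, at 0.84, gave 9622 in the mutant and 5377 in the control, while Tubb3 (-0.20) and Erbb3 (-0.30) were lower. Sox10 was above the floor in the control only, at 64.3 in the mutant and 137 in the control. Among macrophage markers, Ptprc, Lyz2, Adgre1 and Fcgr1 were under the floor on both arrays and 1 of 7, Cd68, was measured on both, at 162 in the mutant and 93.8 in the control (0.79). The other two were above the floor in the control only, Csf1r at 80.6 in the mutant and 144 in the control and Cx3cr1 at 47.8 in the mutant and 226 in the control. Sums are over the genes measured on both arrays, and Msx1, Twist1 and Junb each stand in more than 1 of the lists used here. The part of these cell types and of the immediate early response in the Id and SMAD ratios was not tested.

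Tbx20, the targeted gene, was read at 84.0%, 85.9% and 60.2% of the control signal by its 3 probe sets, and whether these lie in the deleted part is not given in the sources used here. The bacterial and phage spike controls gave lower signal in the mutant for 18 of 18 probe sets, with a mean log2 ratio of -0.45, larger in size than the ratios of Id1, Id3 and Smad6. The median log2 ratio of all measured genes was -0.01. The spikes are added controls for hybridisation, and their part in the ratios of Id1, Id3 and Smad6 was not tested. For Gapdh, the 3′ probe set had 1.64 times the signal of the 5′ probe set in the mutant and 2.27 times in the control, a ratio used to judge RNA integrity. For Actb the same ratio was 0.998 in the mutant and 0.989 in the control.

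The gene nearest to each in its pair of log2 signals was sought among 129 measured genes of the lists used here, and since probe affinity sets the level of each signal, nearness describes the probe sets as much as the genes. Smad7 was nearest to Egr2, an immediate early gene that read 1571 in the mutant and 2832 in the control (distance 0.33). Smad6 was nearest to Smad4 (0.11), Id1 to Strap, a SMAD7-binding protein gene (0.08), Id3 to Col1a1 (0.09), Id2 to Gata4 (0.18) and Id4 to Tmem100 (0.15).

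**Figure D4:**
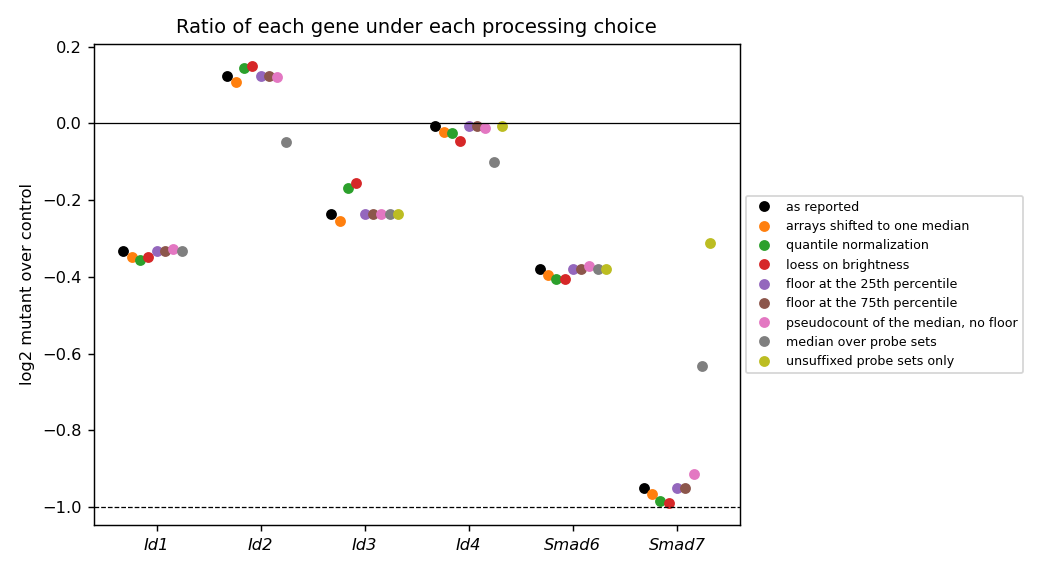
Log2 mutant over control of each gene (y axis) under each processing choice (coloured points; black, as reported), with a dashed line at 2-fold lower. Id1, Id3 and Smad6 keep values below 0 in each setting that measured them, Smad7 lies between -0.99 and -0.31, and Id2 changes sign with the median over its probe sets.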

How the data were processed

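Per the submitters' processing notes, the authors made the deposited intensities with MAS5, 1 value per probe set. The files bear its scaling: the mean without the lowest and highest 2% was 500.003 on each array. Neither a MAS5 version nor a genome build is given in the sources used here. MAS5's single factor per array leaves trends with brightness in place, and mismatch subtraction makes dim ratios noisy.

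Of 45101 probe sets, 64 array controls were left out, and 34945 named 1 gene in the platform annotation. Signals were put on the log2 scale with a floor at each array's median. A gene took the probe set whose log2 signal was highest on average, and this left 10665 genes measured on both arrays. No p-value was computed, since each genotype has 1 array; precision is limited by the number of arrays. The lists, the genes and the motifs were chosen with earlier results of these data known. Named genes were all 6 members and, from each list, up to 4 with the largest absolute ratio; markers are given by list. Alternatives were 3 other normalizations, 3 other treatments of dim values, 2 other rules for the probe set and folds of 1.5 and 3. Loess used a span of 0.3. Steps were tested on simulated data whose differences were larger than those of the 6 genes, so recovery of differences of their size was not tested. The software was Python 3.11.15, pandas 2.3.3 and statsmodels 0.14.6.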

Additional observations from a re-analysis of the deposited data

How the results depend on the processing

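No paired analysis was possible because each genotype has 1 array. Of the 89 values recomputed under the alternatives, 86 moved by less than the probe set SD of 0.24 (ratios) or by no more than 1.5 times (counts). Those that moved more included Smad7, at -0.63 with the median over its probe sets and -0.31 with unsuffixed probe sets only. The other was the count of genes lower by the fold rule, which was 1 at 1.5-fold and 0 at 2-fold and 3-fold. Some of the 86 could not move, so their number is not a measure of stability. The lower and higher floors left the ratio of each gene as reported. The median over probe sets cannot change Id1, Id3 or Smad6, which have 1 probe set each. Id2 ranged from -0.05, with the median over its probe sets, to 0.15 after loess, so its sign depends on the probe set. The median ratio over the genes ranged from -0.30 to -0.25. Id1 ranged from -0.36 to -0.33, Smad6 from -0.41 to -0.37, Id3 from -0.25 to -0.16 and Id4 from -0.10 to -0.01. With unsuffixed probe sets only, Id1 and Id2 had no value measured on both arrays and 4 genes remained, all lower. Relative to the median of all genes, 5 of 6 genes were lower as reported, and 4 of 6 with the lower floor and with a pseudocount, where 52.8% and 61.2% of all genes were below 0. The median ratio of all genes stayed between -0.09, with a pseudocount, and 0.01, with the higher floor. Depth does not apply to arrays. At the floor as reported, only the third Id2 probe set was limited by signal near the floor. With the higher floor, 9 probe sets of these genes were measured, 8 of them lower in the mutant.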

Other observations

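Genes listed as intracellular regulators of SMAD signalling, a list that mixes inhibitors with genes that sustain the signal such as Rnf111 and Usp15, were measured in full, 15 of 15 genes. Of these, 10 were lower and 5 higher in the mutant, against 51.0% lower of all measured genes. The median log2 ratio was -0.07, against -0.01 over all measured genes. Pmepa1, a membrane protein that sequesters receptor-activated SMADs and is induced by TGF-beta, read 806 in the mutant and 1669 in the control (-1.05), and its other measured probe sets lay as high as -0.22. Ski, a nuclear SMAD corepressor, was at -0.50, with its other probe set at 0.24. Smurf1, a ubiquitin ligase that SMAD6 and SMAD7 recruit, was at 0.31, with its other probe set at -0.20. Usp15, a deubiquitinase of the pathway, was at 0.28 from its single measured probe set. The remaining ligase genes, Smurf2 (-0.09), Wwp1 (0.04), Wwp2 (-0.08), Nedd4l (0.03) and Rnf111 (-0.07), had ratios near 0 in their brightest probe sets and are named here after their values were seen. Other measured probe sets reached down to -0.55 for Wwp1 and -0.60 for Wwp2 and up to 0.24 for Smurf2.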
